A study of Mus musculus with 8 samples.

Results

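The 9 genes described here encode transcription factors that T cells use to read antigen receptor signals: the HMG-box factors Tox and Tox2, the orphan nuclear receptors Nr4a1, Nr4a2 and Nr4a3, the zinc-finger factors Egr1, Egr2 and Egr3, and the calcineurin-dependent factor Nfatc1. They were taken by gene name from a table of 52636 rows, each name stood on 1 row, and all 9 passed the filter on low values that left 12798 genes to test. RNA had been sequenced from CD4+ T cells of the spleen, sorted by a Foxp3 reporter into Foxp3+ regulatory cells (Tregs) and Foxp3- conventional cells (Tconvs), 200000 cells a sample, from mice 6 to 8 weeks old. Control mice were CD27+/- Foxp3 reporter mice. CD70Tg mice (CD11c-Cd70tg;CD27+/-) carried in addition a transgene that drives CD70, the ligand of CD27, from the CD11c promoter. The paper describes the ligand as overexpressed by CD11c+ cells such as dendritic cells. Whether the sorted T cells made any of it was not tested. By these genotypes CD27, the receptor, was heterozygous in every group, controls included. Each of the 4 groups had 2 libraries (Tconv control, Tconv CD70Tg, Treg control and Treg CD70Tg), 8 in all. The column names call the control samples KO while the other labels describe wild-type mice, and KO was read here as the mice without the transgene. Library numbers 1 and 2 only name the columns. By the study's methods B cells, macrophages, dendritic cells, NK cells, granulocytes and CD8+ cells were depleted with magnetic beads, for Tconvs but not Tregs CD25+ cells too, and the rest were sorted on CD3, CD4 and the reporter.

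Engagement of the T cell receptor raises calcium and activates ERK. Calcium acts through calcineurin to bring NFAT proteins into the nucleus, while ERK and calcium act through SRF, MEF2 and CREB to switch on the immediate-early genes Egr1, Egr2, Egr3, Nr4a1, Nr4a2 and Nr4a3. TOX and NR4A proteins are known from chronically stimulated CD8 T cells, where they go with inhibitory receptor expression, Egr2 and Egr3 are known from anergic T cells, and NR4A proteins also take part in Treg development. The question the design puts to these genes is how their transcripts stand in Tregs and Tconvs when CD27 is engaged continuously.

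Each value is a read count per gene that the authors scaled to 20 M reads in each library (M, 1000000). Working back from the smallest step between values, the libraries held between 1.91 M and 33.3 M counted reads, the Treg libraries (1.91 M to 4.57 M) fewer than the Tconv libraries (6.94 M to 33.3 M), so Treg values carry more counting error. A value worth 3 reads ranged from 1.8 to 31.3, and the lowest reading of any member, Nr4a2 in 1 Tconv control library, rested on 8 reads. Foxp3 itself stood between 19769 and 21367 in Tregs and between 1039 and 1497 in Tconvs. Cd70 itself read 15, 28, 11 and 44 in the CD70Tg libraries and 4, 3, 0 and 9 in the controls, all CD70Tg values above all controls. The values 15, 28 and 44 lay above what 3 reads are worth in their libraries (8.6, 1.8 and 16.3). The value of 11, about 1 read in the shallowest library, did not, and of the controls only 4 did (3.1). The summed T cell markers ranged from 104095 to 108149 in Tconv control, 102666 to 111706 in Tconv CD70Tg, 72885 to 73617 in Treg control and 74572 to 76623 in Treg CD70Tg. The Tconv control pair differed in a way that touches these genes: all 9 members were higher in library 1 than in library 2, where 67.9% of all tested genes were, and their median difference was 0.54 on the log2 scale against 0.18 for all tested genes. The Tconv CD70Tg pair was skewed as well: 8 of 9 members were higher in library 2, where 25.4% of all genes were higher in library 1, with a median difference of 0.33 over the members and 0.23 over all genes. Treg control libraries differed by a median of 0.11 over the members and 0.15 over all genes.

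**Figure D1:**
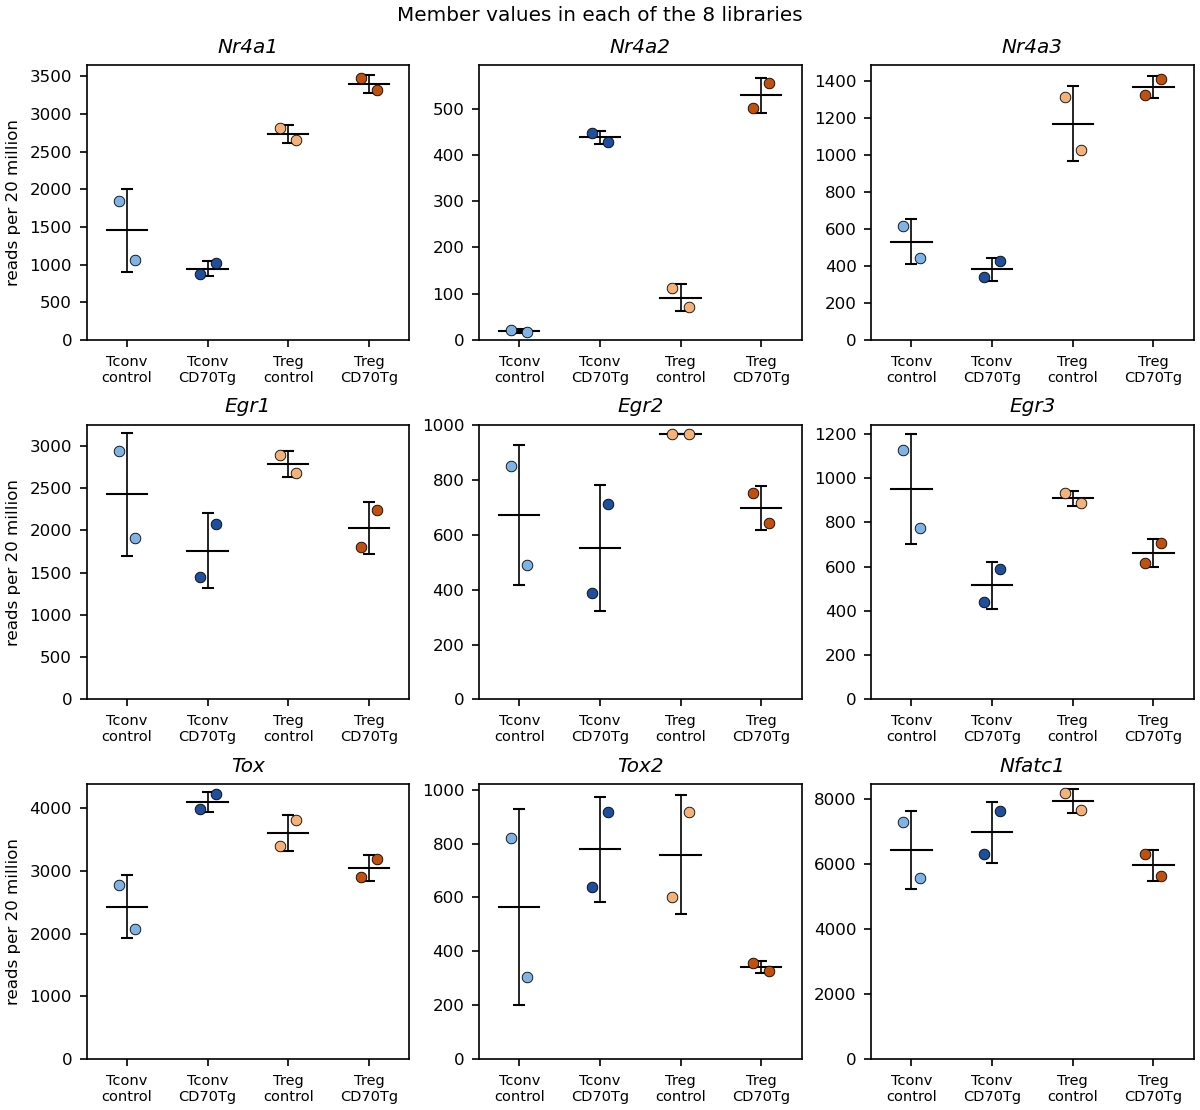
Values of the 9 genes (reads per 20 M, linear axes from 0) in each library, with the group mean as a line and the SD as bars (n = 2 libraries). Nr4a2 is the member whose 2 CD70Tg libraries stand far above the 2 control libraries in both cell types (428 to 447 over 17 to 22 in Tconvs, 502 to 555 over 71 to 112 in Tregs), while Egr3 lies lower in the CD70Tg libraries of both.

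In Tconvs of CD70Tg mice 1 of the 9 members was called higher than in control Tconvs and 0 were called lower. A gene was called when the Benjamini-Hochberg adjusted p of limma over all tested genes was under 0.05 and the difference of log2(value + 5) was over 1 in size. Of all 12798 tested genes 4.07% were called higher and 0.57% lower. At an unadjusted p under 0.05 in the same limma fit 2 members were higher and 4 lower, and limma-voom on the recovered reads called 1 higher and 0 lower. Counting by the adjusted p at any fold, 2 members were higher (6.82% of all tested genes) and 1 was lower (1.98%). The 2 groups did not overlap for 2 members that were higher (23.7% of all genes) and 3 that were lower (21.5%).

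In Tregs 1 member was called higher (2.52% of all tested genes) and 1 lower (1.08%), and dropping the fold threshold left those counts as they were (3.94% and 3.46% of all genes). CD70Tg and control Tregs did not overlap for any of the 9 members: 3 were higher in CD70Tg (22.5% of all genes) and 6 lower (31.2%). The median log2 difference over the members was -0.29 in Tconvs and -0.41 in Tregs, against 0.01 and -0.05 over all tested genes. The test of whether the Treg response differed from the Tconv response called 0 members higher (0.188% of all genes) and 1 lower (0.828%) at an adjusted p under 0.05. For that difference, 2 members were higher and 4 lower at an unadjusted p under 0.05 in limma, and limma-voom called none. No label says that the 2 libraries of a group came from separate animals, so these p-values measure the spread between the libraries only.

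**Figure D2:**
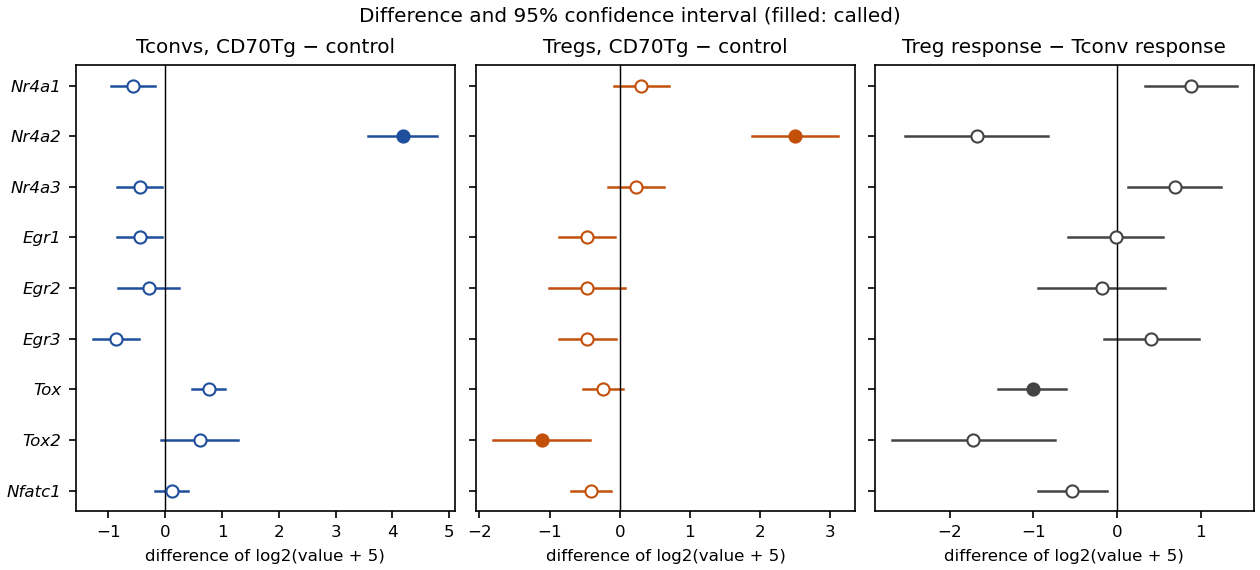
Difference of log2(value + 5) between CD70Tg and control (left and middle panels) and the Treg difference minus the Tconv difference (right panel) for each gene, as a point with its 95% confidence interval from limma (filled points were called). Nr4a2 was called in both cell types at 4.18 and 2.5, Tox2 in Tregs at -1.11, and the difference between responses was called for Tox at -1.01.

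Among the nuclear receptors, Nr4a2 (Nurr1) was the member that rose in both cell types. It stood at 22 and 17 in the control Tconv libraries and at 447 and 428 in the CD70Tg Tconv libraries. Control Tregs held 112 and 71, and CD70Tg Tregs 502 and 555. Within each cell type the groups were far apart, and the lowest CD70Tg library (428, a Tconv) stood above the highest control library of either type (112, a Treg). The mean rose from 19.5 ± 3.54 to 438 ± 13.4 in Tconvs (SD, n = 2 libraries each), a log2 difference of 4.18 ± 0.29 (SE; 18.2-fold on the value + 5 scale; limma adjusted p = 4.5e-08). In Tregs it rose from 91.5 ± 29.0 to 528 ± 37.5, a log2 difference of 2.5 ± 0.29 (5.65-fold; limma adjusted p = 5.7e-05). The Treg response minus the Tconv response was -1.68 on the log2 scale, with a 95% interval of -2.54 to -0.82, and missed the threshold (limma adjusted p = 0.063). Both called differences held under all 22 alternative settings, between 3.54 and 4.43 in Tconvs and between 2.19 and 2.81 in Tregs. The control Tconv values rested on 21 and 8 reads, against 155 and 713 in CD70Tg, so counting error weighs most on the control side of the Tconv fold.

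One CD8 T cell marker moved with Nr4a2. Cd8a, of the CD8 coreceptor, read 17 and 28 in control Tconvs and 508 and 608 in CD70Tg Tconvs, and rose from 25 and 71 to 262 and 223 in Tregs. Cd8b1, the other CD8 chain, read 703 and 653 in control and 1055 and 982 in CD70Tg Tconvs (0.58, limma adjusted p = 0.038, under the fold threshold), and 292 and 346 against 398 and 408 in Tregs (0.34, limma adjusted p = 0.26). The sum of the CD8 T cell markers Cd8a and Cd8b1 lay between 681 and 720 in the control Tconv libraries and between 1563 and 1590 in the CD70Tg ones. In Tregs it lay between 317 and 417 in control and between 631 and 660 in CD70Tg. CD8+ cells had been depleted with an antibody to the CD8 beta chain before the sort. None of the 8 libraries had either gene at 0, and 1 of the 2 genes was called higher in each cell type. Their part in the Nr4a2 difference was not tested. In bulk RNA of a sorted fraction, more cells that express a gene and more RNA per cell cannot be told apart.

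The other NR4A members did not follow Nr4a2. Nr4a1 (Nur77), an immediate-early gene widely used as a reporter of T cell receptor signalling, read 1846 and 1061 in control Tconvs and 876 and 1017 in CD70Tg Tconvs. In Tregs it read 2820 and 2649 in control and 3480 and 3317 in CD70Tg. Its CD70Tg values lay below both controls in Tconvs and above both controls in Tregs, and neither difference passed the test (-0.57 ± 0.18 in Tconvs, limma adjusted p = 0.071; 0.31 ± 0.18 in Tregs, limma adjusted p = 0.35). The Tconv value rested on the control pair: it was -0.17 without library 1 of Tconv control (adjusted p = 0.71) and -0.96 without library 2 (adjusted p = 0.00031). Nr4a3 (Nor1), the third of the family, kept the same order, with 617 and 446 against 340 and 428 in Tconvs. Treg libraries held 1315 and 1029 in control and 1327 and 1414 in CD70Tg. Its log2 differences were -0.45 ± 0.19 and 0.23 ± 0.19 (limma adjusted p = 0.17 and 0.51). Leaving out single libraries gave -0.69 to -0.22 in Tconvs and 0.06 to 0.41 in Tregs. Over the 8 libraries the log2 values of Nr4a1 and Nr4a3 had a Pearson correlation of 0.99, where Nr4a2 had 0.15 with Nr4a1 and 0.19 with Nr4a3. The 8 points fall into 4 groups and include the difference between cell types.

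Per kilobase of exon, a scale on which genes can be set side by side, Nr4a2 made up 0.854% and 1.10% of the summed NR4A level in control Tconvs, and 26.4% and 22.6% in CD70Tg Tconvs. In Tregs its share was 2.63% and 1.85% in control and 9.25% and 10.4% in CD70Tg. Nr4a1 was the most abundant of the 3 in every library, with a share between 59.9% and 82.9%. The summed NR4A level per kilobase was 635 and 381 in control Tconvs and 417 and 467 in CD70Tg Tconvs, groups that overlap, so in Tconvs the make-up of the family changed while its sum did not separate the groups. In Tregs the sum was 1051 and 944 in control and 1337 and 1318 in CD70Tg.

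**Figure D3:**
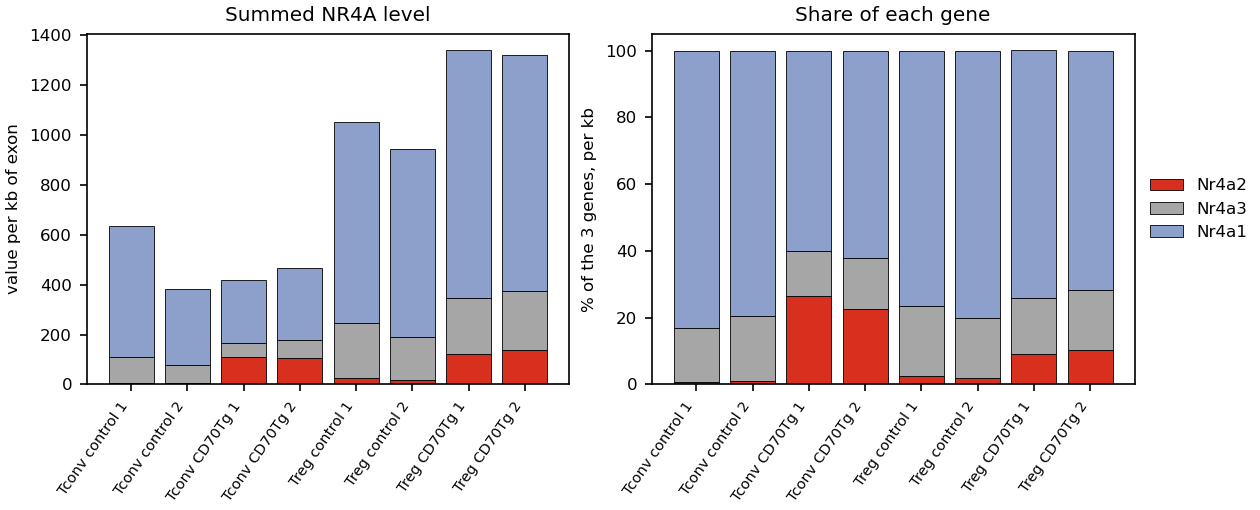
Summed level of the 3 NR4A genes per kilobase of exon in each library (left, stacked bars from 0) and each gene's share of that sum in % (right). The Nr4a2 segment grows from about the bottom line in the control Tconv libraries (0.854% and 1.10%) to 26.4% and 22.6% in the CD70Tg ones.

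All 3 NR4A genes are known targets of CREB, which binds the cAMP response element (CRE), and Egr2 is a known target of SRF, which binds the CArG box. Sequences before an annotated start of Nr4a2, the 1 gene of these families called between CD70Tg and control, of both other NR4A genes and of Egr2 are shown as a description of the elements they hold. They come from the RefSeq promoter table (build GRCm38.p6), which matched 5 of the 9 members for the windows searched and holds 250 bases before and 50 after each annotated start. Capitals mark the CRE half-site TGACG on either strand (CGTCA when on the opposite strand) and, in Egr2, the CArG box too. Each stretch runs from 10 bases before the first marked element to 10 bases after the last, 5′ to 3′ on the gene's strand. All lie before the annotated start used, but not all lie outside the gene. The last 20 bases of the Nr4a3 stretch, with its last TGACG, fall in an annotated untranslated exon of Nr4a3 in GENCODE M21. The Nr4a1 and Egr2 stretches lie within the annotated extents of their genes and outside their exons. The Nr4a1 stretch is chr15:101266603-101266820 on the plus strand, that of Nr4a2 is chr2:57124100-57124213 on the minus strand, that of Nr4a3 is chr4:48045064-48045172 on the plus strand, and that of Egr2 is chr10:67537748-67537828 on the plus strand.
Nr4a1: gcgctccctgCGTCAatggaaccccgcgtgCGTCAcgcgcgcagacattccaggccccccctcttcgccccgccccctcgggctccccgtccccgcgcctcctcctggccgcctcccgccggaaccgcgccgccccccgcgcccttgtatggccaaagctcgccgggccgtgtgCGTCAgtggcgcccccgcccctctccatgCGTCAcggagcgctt
Nr4a2: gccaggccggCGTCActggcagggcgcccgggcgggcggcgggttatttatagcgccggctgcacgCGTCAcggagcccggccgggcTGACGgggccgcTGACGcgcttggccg
Nr4a3: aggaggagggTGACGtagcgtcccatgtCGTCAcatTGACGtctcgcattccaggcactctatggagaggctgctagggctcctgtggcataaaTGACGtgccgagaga
Egr2: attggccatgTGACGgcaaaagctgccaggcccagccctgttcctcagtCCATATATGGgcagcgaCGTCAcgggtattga

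The windows of Nr4a1, Nr4a2 and Nr4a3 each held 4 matches to TGACG on either strand, a number reached or passed in 0.23% of the 32851 promoter windows of the table, where 20.8% hold at least 1. The full element TGACGTCA occurred in none of the 3 (1.8% of all windows hold it). Nr4a1 and Nr4a2 also held the EGR element GCGNGGGCG (5.6% of all windows), and Nr4a3 did not. The NFAT core GGAAA, which 61.3% of all windows hold, matched once in Nr4a2 and in neither of the other two. Neither the AP-1 element TGANTCA (7.8% of all windows) nor the NBRE AAAGGTCA, which NR4A proteins bind (1.5%), matched in any of the 3. Egr2 has 5 annotated starts, and the third was picked because its window holds both kinds of element, 2 matches to TGACG and 1 CArG box (1.6% of all windows). The overlapping windows of the fourth and the fifth hold the same matches, that of the second holds 1 CArG box, 3 GGAAA and no TGACG, and that of the first holds none of the elements searched. A match of letters does not show that a factor binds there, and the elements searched do not set the Nr4a2 window apart from the Nr4a1 window except for the 1 GGAAA.

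**Figure D4:**
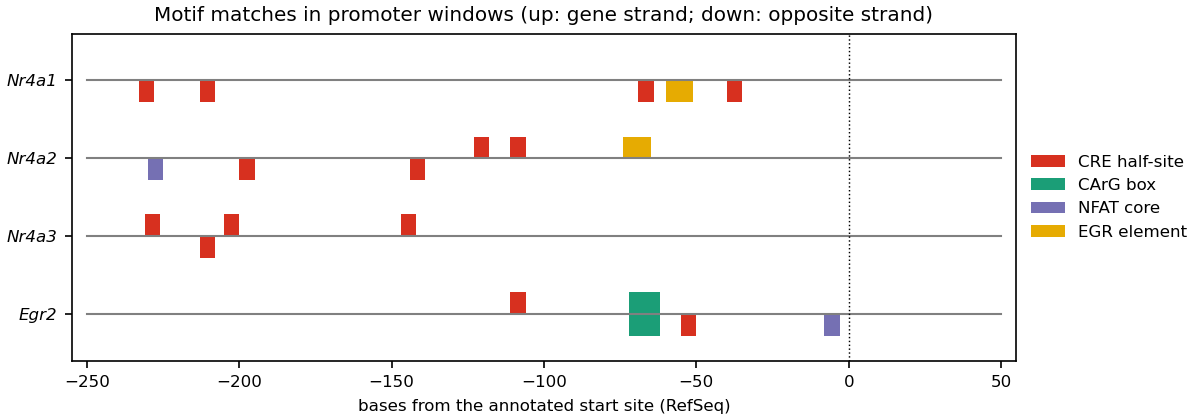
Positions of 4 kinds of motif match in the promoter windows of Nr4a1, Nr4a2, Nr4a3 and the third annotated Egr2 start, as bases from the annotated start (negative is upstream), drawn upwards on the gene's strand and downwards on the opposite strand. Each NR4A window carries 4 CRE half-sites, and the Egr2 window shown carries 1 on each side of its CArG box.

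None of the 3 EGR genes was called in either cell type (in limma, at an unadjusted p under 0.05, Egr1 and Egr3 were lower in both). Egr3, which restrains T cell activation together with Egr2, read 1127 and 773 in control Tconvs and 441 and 589 in CD70Tg Tconvs. In Tregs it read 932 and 885 in control and 617 and 707 in CD70Tg. Both CD70Tg groups lay wholly below their controls. In Tconvs the log2 difference of -0.87 ± 0.19 passed the p threshold and not the fold threshold (limma adjusted p = 0.0069; means 950 ± 250 and 515 ± 105, SD, n = 2), and it ranged from -1.14 to -0.60 over the alternatives. The p threshold was lost without library 1 of Tconv control (-0.60, adjusted p = 0.12) and without library 1 of Tconv CD70Tg (-0.66, adjusted p = 0.054), and Egr3 was called without library 2 of Tconv control (-1.14, adjusted p = 0.0018) or library 2 of Tconv CD70Tg (-1.07, adjusted p = 0.0075). In Tregs the difference was -0.46 ± 0.19 (limma adjusted p = 0.17). The test of the difference between the cell types gave 0.41 with a 95% interval of -0.16 to 0.98. That value was 0.14 without library 1 of Tconv control and 0.68 without library 2.

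Egr1, the most abundant EGR transcript per kilobase in every library, read 2946 and 1915 in control Tconvs and 1450 and 2076 in CD70Tg Tconvs, which overlap. Its Treg values, 2897 and 2680 in control and 1808 and 2246 in CD70Tg, did not overlap. The log2 differences were -0.45 ± 0.19 and -0.47 ± 0.19 (limma adjusted p = 0.18 and 0.16). The Tconv value was -0.14 without library 1 of Tconv control and -0.76 without library 2. Egr2 was the most variable EGR gene within Tconvs. It read 851 and 490 in control Tconvs against 389 and 713 in CD70Tg Tconvs, and 966 and 968 in control Tregs against 753 and 642 in CD70Tg Tregs. Its difference was -0.29 ± 0.26 in Tconvs (limma adjusted p = 0.63), where leaving out library 1 of either group turned its sign, to 0.10 or 0.14, and -0.47 ± 0.26 in Tregs (limma adjusted p = 0.31). Of the summed EGR level per kilobase Egr1 made up between 52.7% and 60.1% in the 8 libraries, Egr2 between 19.3% and 29.0% and Egr3 between 16.6% and 23.5%.

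The EGR cofactors Nab1 and Nab2, which bind EGR proteins and repress their targets, went apart in Tconvs. Nab2, itself a known EGR target, read 2678 and 2051 in control Tconvs and 1309 and 1714 in CD70Tg Tconvs, a log2 difference of -0.64 (limma adjusted p = 0.0088). Nab1 read 2095 and 1907 against 2726 and 3708, a difference of 0.67 (limma adjusted p = 0.0062). Both passed the p threshold and stayed under the fold threshold. In Tregs Nab2 differed by -0.39 and Nab1 by 0.19 (limma adjusted p = 0.12 and 0.50). The fourth EGR gene, Egr4, read between 0 and 22 in the 8 libraries and was not tested.

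Tox, a regulator of CD4 lineage development and of exhausted CD8 T cells, moved differently in the 2 cell types. It read 2784 and 2080 in control Tconvs and 3997 and 4223 in CD70Tg Tconvs. In Tregs it read 3407 and 3810 in control and 2905 and 3198 in CD70Tg. CD70Tg values lay above both controls in Tconvs and below both controls in Tregs, and CD70Tg Tconvs held the highest values of the 8 libraries. The Tconv difference of 0.77 ± 0.14 on the log2 scale passed the p threshold and not the fold threshold (1.71-fold; limma adjusted p = 0.0012; means 2432 ± 498 and 4110 ± 160, SD, n = 2), and the Treg difference was -0.24 ± 0.14 (limma adjusted p = 0.33). The difference between the 2 responses, -1.01 ± 0.19, was called (limma adjusted p = 0.013). That call was lost without library 1 of Treg CD70Tg (adjusted p = 0.099), without library 2 of Treg control (adjusted p = 0.082), with no minimum value (adjusted p = 0.29), with a threshold of 0.01 and with limma-voom (adjusted p = 0.057). Over all alternatives the adjusted p ranged from 0.00091 to 0.29 and the value from -1.22 to -0.80. In the exons of Tox 3.4% of the bases are shared with Gm11802 on the opposite strand, and the counting is not stated to have used strand.

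Tox2, which promotes follicular helper T cells, read 821 and 306 in control Tconvs and 640 and 917 in CD70Tg Tconvs, with overlap. In Tregs it read 602 and 916 in control and 356 and 327 in CD70Tg, without overlap. Its Treg difference of -1.11 ± 0.33 lay just past the threshold (limma adjusted p = 0.048; means 759 ± 222 and 342 ± 20.5, SD, n = 2). It was called under 9 of the 22 alternatives and under none of the 4 that left out a Treg library (adjusted p between 0.064 and 0.31), and the CD70Tg values rested on 34 and 60 reads. In Tconvs the difference was 0.61 ± 0.33 (limma adjusted p = 0.35). Without library 1 of Tconv control it was 1.31 (adjusted p = 0.0034), and without library 2 it was -0.10. The difference between the Treg and Tconv responses was -1.72 ± 0.46 and missed the threshold (limma adjusted p = 0.10). It ranged from -2.42 (without library 1 of Tconv control, adjusted p = 0.00056, the 1 alternative that called it) to -1.01 (without library 2 of Tconv control, adjusted p = 0.25). The relatives Tox3 and Tox4 stood at 0 to 4 and at 2518 to 3402 in the 8 libraries. Tox4 differed by 0.06 in Tconvs and 0.01 in Tregs (limma adjusted p = 0.88 and 0.98).

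Nfatc1, whose short isoform is induced through its own promoter in activated T cells, was the most abundant member per kilobase in 6 of the 8 libraries. It read 7302 and 5583 in control Tconvs and 6313 and 7655 in CD70Tg Tconvs, which overlap, and the difference was 0.12 ± 0.14 (limma adjusted p = 0.73). In Tregs it read 8206 and 7680 in control and 6311 and 5633 in CD70Tg. The Treg libraries did not overlap, and the difference of -0.41 ± 0.14 missed the threshold (limma adjusted p = 0.082). These values sum over isoforms, so they do not bear on the short isoform.

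Nfatc2 and Nfatc3 are the other NFAT genes well expressed in T cells. Nfatc2 stood between 2855 and 3253 and Nfatc3 between 6143 and 7961. Nfatc3 read 7483 and 7961 in CD70Tg Tconvs and 6280 and 6454 in CD70Tg Tregs, without overlap (-0.28 ± 0.12, limma adjusted p = 0.064). Nfat5, the osmotic stress member of the family, read 409 to 695 in Tconvs and 2296 to 2895 in Tregs. It was called higher in Tregs by 2.31 in control and 1.84 in CD70Tg mice (limma adjusted p = 5.2e-08 and 9.5e-07). Between CD70Tg and control it differed by 0.41 in Tconvs and -0.05 in Tregs (limma adjusted p = 0.22 and 0.91). Nfatc4 read 0 in 7 libraries and 3 in the eighth. Of the 6 tested relatives and cofactors 0 were called in either cell type by limma or limma-voom, with 2 higher and 1 lower at an unadjusted p under 0.05 in Tconvs and 0 and 1 in Tregs.

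Among genes upstream of the members none passed both thresholds within either cell type. Of 20 tested genes of calcium entry, calcineurin and NFAT control (such as the store-operated channel and its sensors, calcineurin subunits and NFAT kinases) 0 were called in either cell type by limma or limma-voom. At an unadjusted p under 0.05 in limma 3 were higher and 1 lower in Tconvs, and 2 higher and 3 lower in Tregs. Rcan3, a member of the calcineurin regulator family that was picked out after its values were seen, read 2053 and 1769 in control Tregs and 1244 and 925 in CD70Tg Tregs, past the p threshold only (-0.83 ± 0.16, limma adjusted p = 0.0045). The median log2 differences of the list, 0.03 and -0.01, were near those of all genes, 0.01 and -0.05. Of 29 tested genes of the ERK, SRF, MEF2 and CREB routes 0 were called by either tool, with 0 higher and 3 lower at an unadjusted p under 0.05 in Tconvs and 2 and 5 in Tregs. Transcripts say nothing of the activity of these proteins.

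Other immediate-early and receptor-response genes leaned higher in both cell types, with some lower. Of 28 tested, 5 were called higher and 0 lower in Tconvs, and 2 were higher and 0 lower in Tregs. The median log2 difference was 0.25 in Tconvs and 0.40 in Tregs, against 0.01 and -0.05 over all tested genes. At an unadjusted p under 0.05 in limma 12 were higher and 5 lower in Tconvs, and 11 and 4 in Tregs. With limma-voom 6 were called higher in Tconvs and none in Tregs. Jun, the AP-1 subunit, rose in both, from 245 and 450 to 675 and 2475 in Tconvs (log2 difference 1.95, limma adjusted p = 0.0034) and from 1029 and 1226 to 2487 and 3230 in Tregs (1.33, limma adjusted p = 0.048). Rgs1, a regulator of G protein signalling, rose in Tconvs by 2.16 (limma adjusted p = 5e-06) and differed by 0.29 in Tregs (limma adjusted p = 0.49). Ier3, an early survival gene, rose in Tconvs by 2.82 and Dusp4, an ERK phosphatase, by 1.55 (limma adjusted p = 0.0016 and 0.00027). Fosl2, another AP-1 subunit, rose in Tregs by 1.28 (limma adjusted p = 0.012). The 2 Treg calls, Jun and Fosl2, fell to 0 without library 2 of Treg control or library 2 of Treg CD70Tg, and to 1 without either library 1. The Tconv count fell to 2 without library 2 of Tconv CD70Tg.

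Heat shock and AP-1 genes are known to respond to tissue handling and sorting. The summed level of 23 heat shock and handling genes ranged from 101138 to 107457 in Tconv control and from 105176 to 107034 in Tconv CD70Tg, and from 90119 to 95759 and 90357 to 97124 in Tregs, so control and CD70Tg overlapped in both cell types. Of the 19 tested, 2 were called higher in Tconvs (Jun and Socs3) and 1 in Tregs (Jun). Their part in the members' values was not tested.

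Of 22 tested genes tied to TOX and NR4A, mostly inhibitory receptors and the factors that accompany them, 11 were called higher and 0 lower in Tconvs, with a median log2 difference of 1.11 against 0.01 over all genes. In limma 3 were lower at an unadjusted p under 0.05, among them Id3, an inhibitor of E proteins, which read 1948 and 1622 in control and 922 and 1039 in CD70Tg Tconvs (-0.86, limma adjusted p = 0.00049, under the fold threshold), and limma-voom called 11 higher and 0 lower. In Tregs 4 were higher and 2 lower (median 0.33, against -0.05), while limma-voom called 3 and 1. The Tconv count lay between 11 and 14 when single libraries were left out. Havcr2 (TIM-3) had the largest difference in Tconvs, from 13 and 9 to 666 and 1123 (log2 difference 5.78, limma adjusted p = 1.6e-09), followed by Bhlhe40, a stress-responsive repressor (3.91), and Lag3, a ligand of MHC class II (3.58). Lag3 also shows the spread in control Tconvs, with 1331 and 239 in control against 5818 and 8013 in CD70Tg. Eomes, a T-box factor of cytotoxic cells, rose in both, by 3.33 in Tconvs and 4.09 in Tregs (limma adjusted p = 4.1e-09 and 2.2e-09). Bhlhe40 rose by 2.06 in Tregs (limma adjusted p = 7.2e-05). Cd160, an inhibitory receptor of the immunoglobulin family, fell by 2.31 in Tregs on the log2 scale (limma adjusted p = 0.00023). Pdcd1 (PD-1), a known NFATc1 target, rose in Tconvs by 2.13 (limma adjusted p = 0.00046) and read 1835 and 1826 in control Tregs and 1892 and 1800 in CD70Tg Tregs. The Treg response was below the Tconv response for 8 of the 22 genes and above it for 0 (limma; 1 higher at an unadjusted p under 0.05), and limma-voom called 4 and 0.

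Targets and companions of Egr2 and Egr3 in anergy did not move as one. Of 19 tested, 3 were called higher and 1 lower in Tconvs, and 1 higher and 0 lower in Tregs (3 lower at an unadjusted p under 0.05 in limma, 0 called by limma-voom in either direction). Besides Lag3, the cell cycle inhibitor Cdkn1a rose in Tconvs by 2.5 and Fasl, the death ligand, by 1.05 (limma adjusted p = 0.0023 and 0.0054). Nrgn, a calmodulin-binding protein known as an EGR2 target, fell in Tconvs by 1.63 on the log2 scale, from 63 and 99 to 18 and 27 (limma adjusted p = 0.036). Crtam, an adhesion receptor, rose in Tregs by 1.92 (limma adjusted p = 0.0033). The median difference of the list was 0.06 in Tconvs and 0.02 in Tregs.

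**Figure D5:**
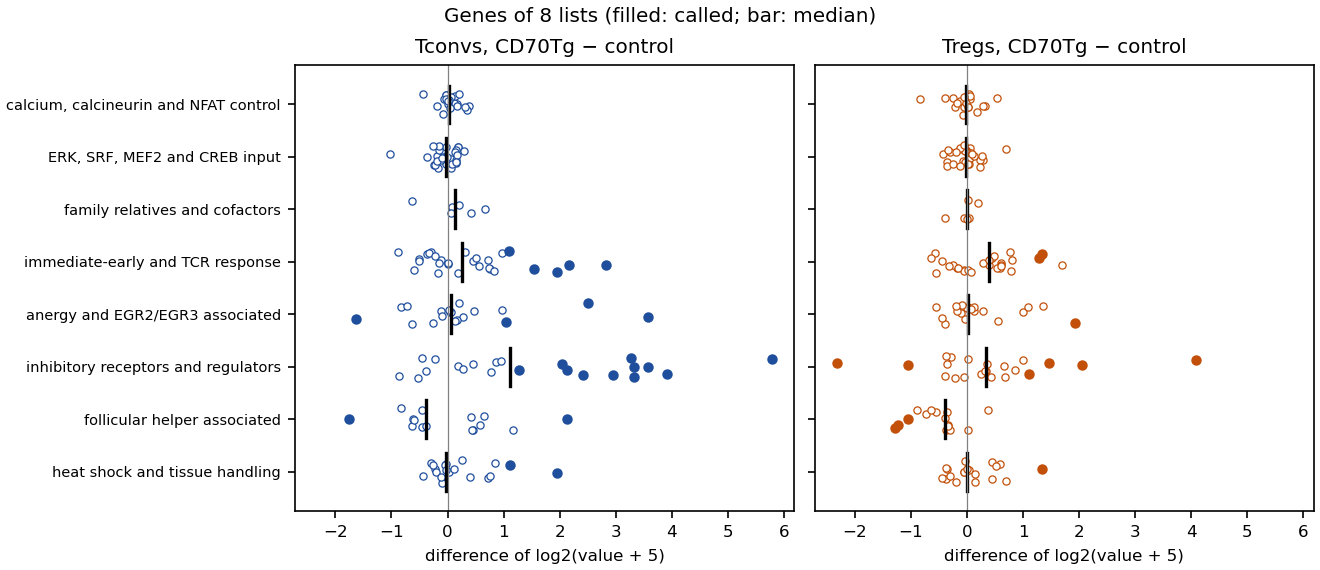
Difference of log2(value + 5) between CD70Tg and control for each tested gene of 8 lists, in Tconvs (left) and Tregs (right), with called genes filled and the list's median as a bar. The calcium and ERK lists have no filled point, and the inhibitory receptors and regulators have 11 in Tconvs to the right of 0.

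Control Tregs held more NR4A transcript than control Tconvs. Of the 9 members 2 were called higher in Tregs (14.7% of all tested genes) and 0 lower (4.43%; at an unadjusted p under 0.05 in limma 6 were higher and 0 lower, and limma-voom called 2 and 0). Nr4a2 was higher by 1.95 on the log2 scale (limma adjusted p = 4.5e-05) and Nr4a3 by 1.14 (limma adjusted p = 0.00011). The Nr4a3 difference was 0.91 without library 2 of Tconv control and 0.97 without library 1 of Treg control, both under the fold threshold. Nr4a1 was higher by 0.96 ± 0.18 and Tox by 0.58 ± 0.14, past the p threshold only (limma adjusted p = 0.00051 and 0.0024). The Tox value ran from 0.37 (without library 2 of Tconv control) to 0.79 (without library 1) when single libraries were left out. The Nr4a1 value was 0.56 without library 2 of Tconv control (adjusted p = 0.0071), and it was called without library 1 of Tconv control (1.36, adjusted p = 1.3e-06) or library 2 of Treg control (1.01, adjusted p = 0.0035). Egr3 differed by -0.04 with a 95% interval of -0.44 to 0.36.

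In CD70Tg mice 2 members were called higher in Tregs than in Tconvs (12.3% of all tested genes) and 1 lower (4.94%). Nr4a1 and Nr4a3 were higher by 1.84 and 1.83 (limma adjusted p = 1.1e-06 and 1.2e-06), with every Treg library above every Tconv library. Nr4a2 differed by 0.27, with a 95% interval of -0.34 to 0.88. Tox was lower in Tregs by 0.43 ± 0.14 (limma adjusted p = 0.017, under the fold threshold) and Tox2 differed by -1.16 ± 0.33 (called; limma adjusted p = 0.0093), where in control mice both had been at least as high in Tregs by their means. The Tox2 call was lost under 5 of the 22 alternatives: without library 2 of Tconv CD70Tg (-0.90, adjusted p = 0.095) or library 2 of Treg CD70Tg (-1.10, adjusted p = 0.051), with no minimum value, with robust empirical Bayes and with limma-voom, and its adjusted p ranged from 0.00026 to 0.17 over all 22. The control and CD70Tg comparisons share no library with each other, but each shares its libraries with the comparisons within Tregs and Tconvs.

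The order of the members' levels per kilobase of exon differed between groups. In control Tconvs Nfatc1 (863) led Egr1 (542), Nr4a1 (414), Tox (320), Egr3 (216), Egr2 (197), Tox2 (166), Nr4a3 (88.8) and Nr4a2 (4.80), as means of 2 libraries. The ranges of Nr4a1 (302 to 526) and Tox (273 to 366) overlapped there, as did those of Egr1 (427 to 657) and Nr4a1, and those of Egr3 (175 to 256), Egr2 (144 to 250) and Tox2 (90.0 to 241), and those of Tox2 and Nr4a3 (74.5 to 103). In CD70Tg Tconvs Tox (540) stood second after Nfatc1 (935), and Nr4a2 (108) stood above Nr4a3 (64.1) with no overlap. Nr4a1 (250 to 290), Tox2 (188 to 270), Egr2 (114 to 210) and Egr3 (100 to 134) overlapped each with the next there, and the range of Egr3 covered that of Nr4a2 (105 to 110). In control Tregs Nfatc1 (1063) led Nr4a1 (779), Egr1 (622), Tox (474), Egr2 (285), Tox2 (223), Egr3 (206), Nr4a3 (196) and Nr4a2 (22.5). The range of Tox2 (177 to 269) covered that of Egr3 (201 to 212) and overlapped that of Nr4a3 (172 to 220), inside which Egr3 lay too. In CD70Tg Tregs Nr4a1 (969) led, ahead of Nfatc1 (800), and Tox2 (100) was last, below Nr4a2 (130) without overlap, while Egr1 (403 to 501) and Tox (382 to 420) overlapped, and Nr4a3 (222 to 236) and Egr2 (189 to 222) met.

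Markers of other cells shifted in some groups. Of 11 tested myeloid and dendritic cell markers limma called 2 higher and 0 lower in Tconvs, and 3 and 0 in Tregs. With limma-voom the counts were 3 higher and 1 lower in Tconvs, and 2 and 0 in Tregs. At an unadjusted p under 0.05 in limma 3 were higher and 3 lower in Tconvs, and 4 and 2 in Tregs. The median log2 difference of these markers was -0.33 in Tconvs and 0.42 in Tregs. The summed level of the 16 on the list ranged from 3413 to 3457 in Tconv control and 2953 to 3993 in Tconv CD70Tg. It ranged from 4675 to 4783 in Treg control and 5102 to 5431 in Treg CD70Tg. Erythroid markers were called higher in Tregs for 3 of 4 tested genes by limma and for 0 by limma-voom, with sums of 488 to 1355 in control and 2069 to 3283 in CD70Tg. The B cell and plasma cell sum was 37216 to 41576 in control Tregs, 49488 to 49633 in CD70Tg Tregs and 10071 to 12586 in Tconvs, nearly all of it Ighm. NK cell markers summed to 662 to 746 in control Tconvs and 246 to 332 in CD70Tg Tconvs, with Ncr1 at 0 in 7 of the 8 libraries. Depletion before the sort was aimed at B cells, macrophages, dendritic cells, NK cells and granulocytes. The part of the remaining marker signal in the members' values was not tested. The 9 genes lie on chromosomes 2 (Nr4a2 at 57106830-57124003 and Tox2 at 163203125-163324170), 4 (Tox at 6686353-6991557 and Nr4a3 at 48045153-48086447), 10 (Egr2 at 67535475-67542188), 14 (Egr3 at 70077203-70082614), 15 (Nr4a1 at 101254269-101274795) and 18 (Egr1 and Nfatc1) in GENCODE M21 (GRCm38), and their values sum the reads over their exons.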

How the data were processed

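RNA-seq libraries were made by the authors with the Ovation SoLo kit and sequenced paired-end. Reads had been trimmed with Trimmomatic 0.36, aligned to mm10 with STAR 2.5.3 and counted per gene with HTSeq 0.9.1, according to the study's methods and the submitters' processing notes. The deposited values are scores: whole numbers, obtained by the authors by scaling each library's counts to 20 M reads (M, 1000000) and rounding up. Count models were therefore not run on them directly, and limma-voom was run on the reads recovered from them. From them, 4131 rows with clone-derived names were left out, since they follow the scale of another library, and genes with at least 60 in 2 or more libraries were kept (12798). Differences of log2(value + 5), written with their SE, were tested with limma 3.58.1 in R 4.3.3 (trended empirical Bayes, 4 group means, all 8 libraries, two-sided) and adjusted by Benjamini-Hochberg over all tested genes. On the log2(value + 5) scale changes of low genes are understated. The script was tested on simulated data. The 22 alternatives (14 settings and 8 leaving out a library) covered the pseudocount, the filter, scaling, thresholds and limma-voom on recovered reads. The smallest step between values gave the reads behind each value. In library 2 of Tconv CD70Tg the step is below 1, so its 33.3 M reads are less certain. Reads are not independent molecules, and a floor of 3 reads covers counting error only. Exon lengths and positions came from GENCODE M21.

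The members and gene lists were chosen with earlier results of these data known. All 9 members are named. From each list at most 4 called genes with the largest difference in each cell type are named, plus all relatives and cofactors. The exceptions are genes chosen after their values were seen: Pdcd1, Id3 and Rcan3, and the label and cell markers Foxp3, Cd70, Cd8a, Cd8b1, Ighm and Ncr1. For each member the 3 tested genes of highest Pearson correlation over the 8 libraries are named.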

Additional observations from a re-analysis of the deposited data

Results flagged for a closer look

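Tox stood out because its responses in Tconvs and Tregs differed by test, and Nr4a1 and Nr4a3 because all their CD70Tg libraries lay on opposite sides of their controls in the 2 cell types. Tox2 also differed in sign between the cell types (0.61 in Tconvs and -1.11 in Tregs, difference between responses -1.72, limma adjusted p = 0.10), but its Tconv libraries overlapped. For Tox the difference between the Treg and Tconv responses was -1.01 on the log2 scale and passed its test (limma adjusted p = 0.013), with both CD70Tg Tconv libraries above and both CD70Tg Treg libraries below their controls. The Tox call was lost under 5 of the 22 alternatives, limma-voom among them, and its value ran from -1.22 to -0.80. For Nr4a1 and Nr4a3 every CD70Tg library lay below its controls in Tconvs and above them in Tregs, and the difference between responses was 0.88 and 0.69. It did not pass the test for either (limma adjusted p = 0.15 and 0.32). Over the 22 alternatives the Nr4a1 value ran from 0.48 (without library 1 of Tconv control, adjusted p = 0.38) to 1.28 (without library 2 of Tconv control, adjusted p = 0.0016, the 1 alternative that called it), and the Nr4a3 value from 0.46 to 0.92 (adjusted p from 0.15 to 0.77).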

How the results depend on the processing

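Of 990 recomputed member values 931 kept their direction and side of the threshold, 25 lost a call, 15 gained one and 19 turned in sign. No paired analysis was possible because the columns carry no replicate numbers. In Tconvs 1 member was called, 3 with no fold threshold, and 1 to 2 leaving out a library. In Tregs the 2 calls became 1 with a pseudocount of 1, no minimum, a minimum mean of 60, median-of-ratios or upper-quartile scaling, adjusted p under 0.01, robust empirical Bayes, limma-voom and clone-named rows kept, and 1 to 2 leaving out a library. The 1 called difference between responses became 0 with no minimum, adjusted p under 0.01 and limma-voom, 2 with robust empirical Bayes, and 0 to 2 leaving out a library. Control Tregs against Tconvs went from 2 to 4 with no fold threshold and ranged from 1 (without library 2 of Tconv control or library 1 of Treg control) to 4 (without library 1 of Tconv control). In CD70Tg mice leaving out a library gave 2 to 3. The cause of these shifts was not tested.

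Signs turned, with no call lost, for the Egr1 difference between responses at 0.07 (median-of-ratios), 0.09 (upper-quartile) and 0.06 (quantile). Leaving out single libraries gave ranges that crossed 0: -0.10 to 1.31 for Tox2, -0.72 to 0.14 for Egr2 and -0.07 to 0.32 for Nfatc1 in Tconvs; -0.32 to 0.30 for Egr1 and -0.61 to 0.25 for Egr2 in the difference between responses; -0.14 to 1.27 for Tox2, -0.08 to 0.54 for Egr1 and -0.31 to 0.23 for Egr3 in control Tregs against Tconvs; and -0.04 to 0.47 for Egr1 and -0.04 to 0.83 for Egr2 in CD70Tg mice.

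Over all genes, 521 higher and 73 lower in Tconvs became 258 and 24 with no minimum, 873 and 253 with no fold threshold, 40 lower with adjusted p under 0.01 and 152 lower with limma-voom. In Tregs 323 and 138 became 150 and 51, 504 and 443, 185 and 65, and 138 and 35 in that order of settings. The difference between responses, 24 and 106, became 0 and 0 with no minimum, 5 and 43 with adjusted p under 0.01, and 10 and 51 with limma-voom. With no fold threshold control Tregs against Tconvs went from 1884 and 567 to 3514 and 2354, and in CD70Tg mice from 1573 and 632 to 2890 and 2569. Quantile normalization moved the split to 1236 and 889 in control, 1263 and 900 in CD70Tg, and 34 and 71 for the difference between responses. Leaving out single libraries gave 254 (without library 2 of Tconv CD70Tg) to 667 higher and 42 (without library 1 of Tconv control) to 100 lower in Tconvs, 158 (without library 1 of Treg CD70Tg) to 324 higher and 40 (without library 1 of Treg control) to 182 lower in Tregs, and 6 (without library 1 of Treg CD70Tg) to 34 higher and 52 (the same library) to 235 lower (without library 1 of Tconv CD70Tg) for the difference between responses. Of 704 list counts 628 stayed within 1.5 times. Each group has 2 libraries, and the shallowest holds 1.91 M reads (M, 1000000).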

Other observations

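Of 15 tested genes of follicular helper T cells, 0 were called higher and 3 lower in CD70Tg Tregs (in limma 0 higher and 10 lower at an unadjusted p under 0.05, and limma-voom called 0 higher and 1 lower). Cd40lg, the ligand of CD40, fell by 1.29 on the log2 scale, from 335 and 395 to 115 and 185 (limma adjusted p = 0.00045). Pou2af1, a transcriptional coactivator of lymphocytes, fell by 1.23 and Il6ra, the interleukin-6 receptor chain, by 1.05 (limma adjusted p = 0.021 and 7.2e-05). In Tconvs 1 was called higher (Pdcd1) and 1 lower (Pou2af1, which fell by 1.75; limma adjusted p = 0.001). The median log2 difference of the list was -0.39 in both cell types.

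Over the 8 libraries, which fall into 4 groups that share cell type and genotype, the genes whose log2 values ran closest to each member were as follows, as a description. Nr4a2 ran with the interferon-inducible GTPase gene Irgm2 (Pearson 0.984), Gm12250 (0.981) and Gm4951 (0.980). Nr4a1 ran with Crtc3, a coactivator of CREB (0.988), Tbc1d19 (0.987) and Nr4a3 (0.986). Nr4a3 ran with A230005M16Rik (0.994), Bmyc (0.993) and Rps6ka1, an ERK-activated kinase (0.992). Egr1 and Egr3 shared the LIM protein gene Fhl3 (0.952 and 0.987). Egr1 also ran with Ewsr1 (0.966) and Gm16229 (0.953), and Egr3 with Ccdc9 (0.973) and Fbxo45 (0.965). Egr2 ran with Ppwd1 (0.961), Irf2bpl (0.956) and Sept9 (0.953). Tox ran with Car5b (0.979), Gm11802, which overlaps it on the opposite strand (0.970), and Serp2 (0.947). For Tox2 the closest were 2610301B20Rik (0.963), Trim12c (0.956) and Aldh18a1 (0.939), and for Nfatc1 Immt (0.973), Lmnb2 (0.965) and Zkscan5 (0.954).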
